A study of Mus musculus with 21 samples.

Results

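The 10 genes described here encode factors that make ribosomes in the nucleolus: Ncl, Npm1, Fbl, Nop56, Nop58, Dkc1, Nhp2, Gar1, Nop2 and Bop1. They were chosen by name, and a gene's value was the summed TPM, a length-normalized share of all transcripts of a library, of every merged long-read transcript whose exons overlapped that gene on the same strand. The group held 10 of the 10917 genes with a merged transcript, and 22 of the 22612 merged transcripts. All 10 genes had at least 1 transcript with the same introns as an annotated coding transcript, and all 10 passed the filter on low values used for testing.

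The study followed the mouse transcriptome from gametes to the blastocyst, with 2 short-read libraries for each of 7 stages and 1 long-read pool per stage. Sperm were of strain DBA/2J by the titles and came from the epididymis, whereas the protocol names the males DBA/2N. MII oocytes were C57/BL6J, and the 1-cell, 2-cell, 4-cell, 8-cell and blastocyst embryos were ♂DBA/2J x ♀C57/BL6J. Females 3 to 5 weeks old were superovulated with 7.5 IU PMSG and, 48 h later, 7.5 IU hCG. Oocytes and embryos were isolated at 20 h after hCG, oocytes being lysed at once. Embryos were then cultured in KSOM and lysed at 24 to 26 h (1-cell), 46 to 48 h (2-cell), 54 to 58 h (4-cell), 68 to 70 h (8-cell) or 94 to 96 h (blastocyst). All oocyte and embryo groups therefore share superovulated mothers, and embryos from the 2-cell stage on developed in culture. A library was made from amplified cDNA of pooled gametes or embryos, so a value is a mean over many embryos. Stage, time in culture and, between oocyte and embryo, the paternal genome change together and cannot be told apart.

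Ribosome production starts in the nucleolus, where RNA polymerase I transcribes the ribosomal RNA precursor and small nucleolar ribonucleoproteins (snoRNPs) modify and help to fold it. Box C/D snoRNPs guide ribose methylation and box H/ACA snoRNPs guide pseudouridylation, after which large sets of assembly factors build the small and large subunits. A full-grown mouse oocyte is transcriptionally silent and holds a compact nucleolus-like body, and active nucleoli are rebuilt in the cleaving embryo after its genome is switched on. Most snoRNAs of mammals are cut from introns of other genes, and several genes of ribosome production are such hosts.

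Marker genes were at hand for sperm, oocytes, 2-cell embryos and blastocysts, and the labels of the 1-cell, 4-cell and 8-cell libraries were not checked. The 6 oocyte markers summed to 5063 and 16143 TPM in the oocyte libraries and to 0.632 to 16.4 TPM in the 8-cell and blastocyst libraries, and 6 blastocyst markers summed to 9377 and 35407 TPM in the blastocyst libraries. The 2-cell libraries stood furthest apart from each other, with 107 and 1255 TPM of oocyte markers, 22.6 and 386 TPM of 2-cell markers, and a median SD between replicates of 1.04 on the log2 scale against 0.19 at the 4-cell stage. In 2-cell replicate 1 these sums were near those of the 4-cell libraries (129 and 134 TPM of oocyte markers, 18.4 and 22.1 TPM of 2-cell markers), so the markers did not set it apart as a 2-cell library. The sperm libraries also held 3253 and 7573 TPM of 5 leukocyte markers, and the part of such cells in the sperm values was not tested. None of the 6 cumulus cell markers had a merged transcript, so cumulus cells were not checked. TPM keeps no read depth and is relative to all transcripts of a library, so the precision of single values is known only from the 2 libraries, and fewer cells or less RNA per cell cannot be told apart from a lower share. The study's methods describe the libraries of a stage as 2 batches of pooled embryos, and p-values measure only the spread between such batches. In the tests below this spread was estimated for each gene over the 6 oocyte and embryo stages together. It is thus not that of the 2 stages compared, and the 2-cell libraries differed more than this shared estimate assumes.

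The oocyte held transcripts of these factors very unevenly. Ncl, Npm1, Nop56, Nop58 and Dkc1 were present at 39.8 to 178 TPM in every oocyte library, Gar1 was at 20.2 and 19.3 TPM, and Fbl, Nhp2, Bop1 and Nop2 were at or below 6.85 TPM. The Ncl and Dkc1 values include short isoforms, whose shares are given below. The first 5 genes are the highest in the oocyte by mean, so a large share there follows from the grouping. They made up 94.0% and 95.1% of the summed TPM of all 10 in the oocyte and 94.6% and 90.4% at the 1-cell stage. At the 2-cell stage their share was 44.2% and 50.0%, and at the 4-cell stage 71.7% and 64.6%. It was 65.4% and 55.3% at the 8-cell stage, and 63.8% and 38.0% in the blastocyst. The sum itself was 394 and 587 TPM in the oocyte, 1112 and 469.6 at the 1-cell, 1087 and 1521 at the 2-cell, 4285 and 4054 at the 4-cell, 5697 and 5433 at the 8-cell stage and 2463 and 1682 in the blastocyst. The 8-cell libraries were the highest and the oocyte libraries did not overlap with any stage from the 2-cell on, whereas they did overlap with the 1-cell libraries. Of the 10 genes, 5 had their highest stage mean at the 8-cell, 4 at the 4-cell and 1 (Gar1) at the 2-cell stage, and 8 had their lowest mean in the oocyte among oocyte and embryo stages. The highest and lowest stages of all genes were not counted, so these counts describe the single genes only.

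**Figure D1:**
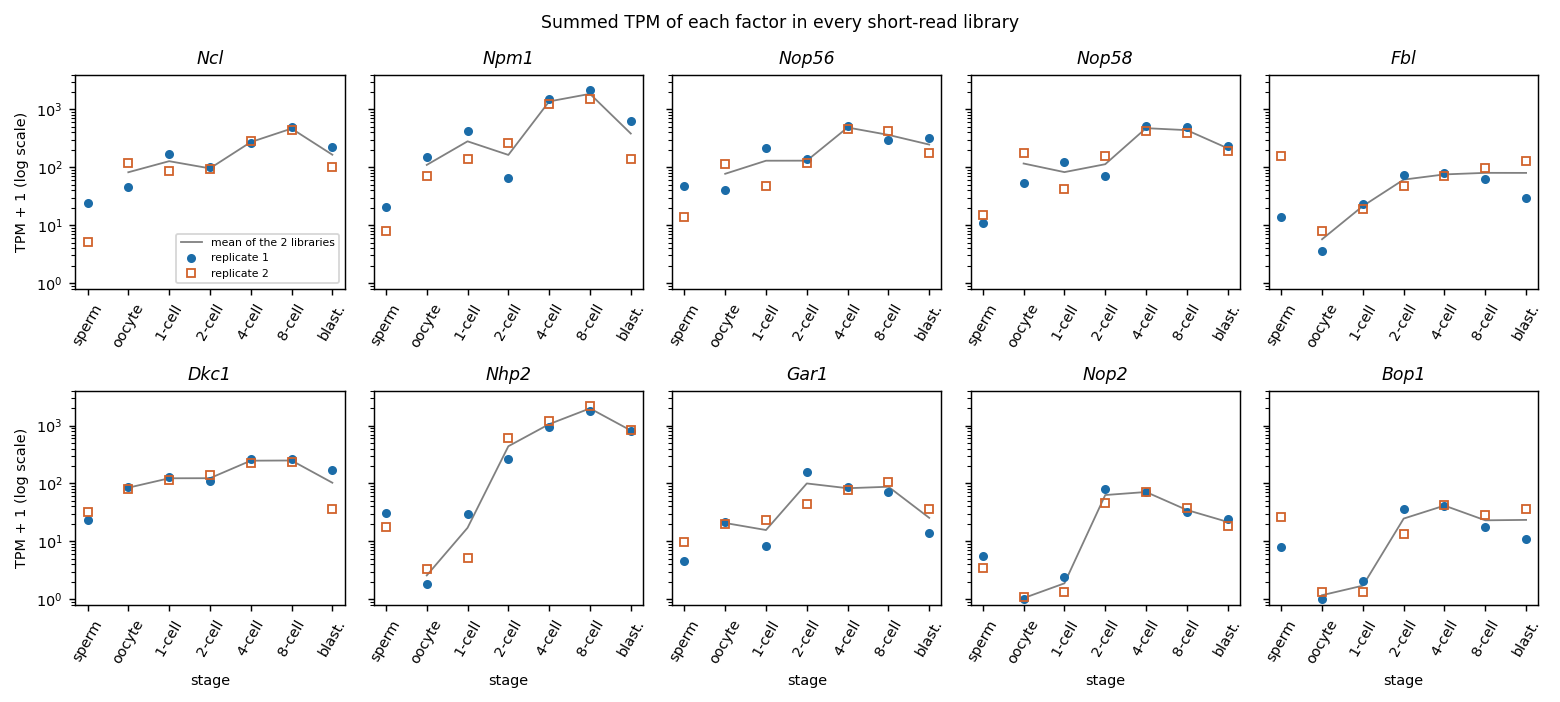
Summed TPM of each of the 10 genes (TPM + 1, log axis) in the 14 short-read libraries by stage; circles and squares are replicates 1 and 2, and the line joins the means of the 2 libraries from oocyte to blastocyst. Nop2 and Bop1 lie at or below 1.45 TPM in all 4 oocyte and 1-cell libraries and at or above 10.2 TPM in every later one, while Ncl and Dkc1 stay between 34.5 and 493 TPM in oocytes and embryos.

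Ncl (chr1:86344719-86359400, minus strand, mm10) encodes nucleolin, an abundant RNA-binding protein that acts in RNA polymerase I transcription and early precursor processing. Its level was 44.5 and 117 TPM in the oocyte, 167 and 85.8 at the 1-cell, 98.2 and 91.2 at the 2-cell, 262 and 279 at the 4-cell, 493 and 437 at the 8-cell stage and 227 and 101 in the blastocyst. The oocyte, 1-cell and 2-cell libraries overlapped, and both 4-cell and both 8-cell libraries lay above all of them. Changes between stages are differences of log2(TPM + 1), tested with limma over 10000 genes at an adjusted p of 0.05. For Ncl no contrast passed: from 1-cell to 4-cell there was a log2 change of 1.17 (SE 0.75, adjusted p = 0.206). The sum includes a short isoform, TCONS_00001060, that held 64.7% and 74.0% of Ncl in the oocyte. The full-length isoform was at 15.7 and 30.6 TPM in the oocyte and at 261 and 279 at the 4-cell stage. Npm1 (chr11:33152287-33163206, minus strand) encodes nucleophosmin, a histone and ribosome chaperone of the outer nucleolus. Its level was 147 and 70.7 TPM in the oocyte, 421 and 138 at the 1-cell, 65.4 and 259 at the 2-cell, 1521 and 1220.5 at the 4-cell, 2185 and 1521 at the 8-cell stage and 622 and 140.4 in the blastocyst. The replicates differed most at the 2-cell stage and in the blastocyst, and all 4 libraries of the 4-cell and 8-cell stages were above every library of the other stages. Npm1 rose from 1-cell to 4-cell with a log2 change of 2.49 (SE 0.94, adjusted p = 0.0399), a ratio of means of 4.90. The step from 2-cell to 4-cell alone, a log2 change of 3.37 (SE 0.94, adjusted p = 0.0609), missed the threshold.

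The 3 box C/D genes started from very different points. Nop58 (chr1:59684971-59719044, plus strand) and Nop56 (chr2:130274430-130279313, plus strand) encode the paired core proteins that hold the guide snoRNA, and Fbl (chr7:28169710-28179269, plus strand) encodes fibrillarin, the methyltransferase. Nop58 was at 52.4 and 178 TPM in the oocyte, 122 and 40.9 at the 1-cell, 70.4 and 153 at the 2-cell, 518 and 427 at the 4-cell, 488 and 385 at the 8-cell stage and 233 and 190.4 in the blastocyst. Nop56 was at 39.8 and 112 TPM in the oocyte, 211 and 46.2 at the 1-cell, 139 and 119 at the 2-cell, 507 and 464 at the 4-cell, 294 and 429 at the 8-cell stage and 319 and 173 in the blastocyst. For both core genes the 1-cell libraries spanned values of the oocyte or 2-cell libraries, and both 4-cell libraries lay above all of these. From 1-cell to 4-cell both rose: Nop58 showed a log2 change of 2.72 (SE 0.81, adjusted p = 0.0127), and Nop56 a log2 change of 2.28 (SE 0.83, adjusted p = 0.0345).

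Fbl was scarce in the oocyte, at 2.56 and 6.85 TPM, and was at 22.5 and 18.3 at the 1-cell, 73.2 and 47.2 at the 2-cell, 78.1 and 70.5 at the 4-cell, 60.9 and 97.1 at the 8-cell stage and 28.3 and 129.5 TPM in the blastocyst. The oocyte libraries lay below all embryo libraries, and those from the 2-cell stage on overlapped with each other. Fbl rose from oocyte to blastocyst with a log2 change of 3.55 (SE 0.78, adjusted p = 0.00174), although the blastocyst replicates differed widely. The transcript ratio of Fbl to Nop58, both per length, was 0.0489 and 0.0385 in the oocyte, 0.184 and 0.448 at the 1-cell, 1.04 and 0.307 at the 2-cell, 0.151 and 0.165 at the 4-cell, 0.125 and 0.252 at the 8-cell stage and 0.121 and 0.680 in the blastocyst. The ratio of Nop56 to Nop58 stayed between 0.602 and 1.98 in all 12 libraries. Transcripts of the methyltransferase thus lay far below those of its core partners in the oocyte, whereas the core genes differed by at most 1.98-fold within a library.

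The box H/ACA genes differed more sharply. Dkc1 (chrX:75095854-75109777, plus strand) encodes dyskerin, the pseudouridine synthase, and Nhp2 (chr11:51619735-51623714, plus strand) and Gar1 (chr3:129824912-129831396, minus strand) encode small partner proteins of the same particle, which also forms part of telomerase. Dkc1 was at 86.9 and 80.0 TPM in the oocyte, 131 and 113 at the 1-cell, 107 and 137 at the 2-cell, 265 and 228 at the 4-cell, 265 and 232 at the 8-cell stage and 169 and 34.5 in the blastocyst. It passed the test in none of the 7 contrasts, and the oocyte to blastocyst estimate was a log2 change of -0.12 (SE 0.77, adjusted p = 0.912), with the blastocyst libraries on both sides of the oocyte libraries. The sum includes a short isoform, TCONS_00022012, that held 38.7% and 56.6% of Dkc1 in the oocyte and 32.1% and 29.3% at the 4-cell stage. TCONS_00022010, with the annotated coding introns, was at 46.0 and 26.4 TPM in the oocyte and 117 and 115 at the 4-cell stage. In the blastocyst TCONS_00022010 was at 87.6 and 17.1 TPM. Levels of single isoforms were not tested.

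From oocyte to blastocyst Nhp2 had the largest change of the 10 genes. It was at 0.843 and 2.31 TPM in the oocyte, 28.1 and 4.17 at the 1-cell, 265 and 612 at the 2-cell, 936 and 1178 at the 4-cell, 1795 and 2163 at the 8-cell stage and 817 and 826 in the blastocyst. No stage overlapped with its neighbour, the 8-cell libraries were the highest, and the 2 blastocyst libraries were nearly alike. Over the first cleavage (1-cell to 2-cell) it rose with a log2 change of 5.04 (SE 0.84, adjusted p = 0.000682), and from oocyte to blastocyst with a log2 change of 8.38 (SE 0.84, adjusted p = 6.16e-06). By mean level Nhp2 was 8th of the 10 genes in the oocyte and 1st at the 2-cell, 8-cell and blastocyst stages. The transcript ratio of Nhp2 to Dkc1 was 0.00970 and 0.0289 in the oocyte, 0.215 and 0.0369 at the 1-cell, 2.48 and 4.45 at the 2-cell, 3.53 and 5.18 at the 4-cell, 6.77 and 9.34 at the 8-cell stage and 4.83 and 23.9 in the blastocyst. It was at most 0.215 in the 4 oocyte and 1-cell libraries and at least 2.48 in all later ones. The Dkc1 value in this ratio includes its short isoform TCONS_00022012.

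Gar1 was at 20.2 and 19.3 TPM in the oocyte, 7.21 and 22.1 at the 1-cell, 155 and 43.4 at the 2-cell, 86.9 and 76.5 at the 4-cell, 68.8 and 105 at the 8-cell stage and 13.1 and 35.8 in the blastocyst. Its oocyte, 1-cell and blastocyst libraries overlapped, and all libraries from the 2-cell to the 8-cell stage were above them. Gar1 rose over the first cleavage with a log2 change of 2.59 (SE 0.81, adjusted p = 0.0242). From oocyte to blastocyst the estimate was a log2 change of 0.14 (SE 0.81, adjusted p = 0.901).

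Nop2 and Bop1, which act on the large subunit, were at or below 1.45 TPM before the 2-cell stage. Nop2 (chr6:125131909-125144753, plus strand) encodes a methyltransferase of the large ribosomal RNA, and Bop1 (chr15:76452989-76477277, minus strand) a subunit of the complex with Pes1 and Wdr12 that is needed to process that RNA. Nop2 was at 0 and 0.0893 TPM in the oocyte, 1.45 and 0.311 at the 1-cell, 78.3 and 45.8 at the 2-cell, 70.3 and 70.0 at the 4-cell, 30.7 and 37.0 at the 8-cell stage and 23.8 and 17.5 in the blastocyst. Bop1 was at 0.0220 and 0.324 TPM in the oocyte, 1.09 and 0.343 at the 1-cell, 35.0 and 12.5 at the 2-cell, 40.1 and 40.8 at the 4-cell, 16.4 and 27.8 at the 8-cell stage and 10.2 and 34.7 in the blastocyst. For both genes every oocyte and 1-cell library lay below every later library. Over the first cleavage Nop2 rose with a log2 change of 5.09 (SE 0.65, adjusted p = 0.000173) and Bop1 with a log2 change of 3.72 (SE 0.75, adjusted p = 0.00233). On the log2(TPM + 1) scale these values understate the change of a gene that starts near 0.

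In sperm, which entered no test, the order of the genes was unlike that of the oocyte. Fbl was the highest by mean but at 13 and 157 TPM in the 2 libraries, and Npm1 was at 19.4 and 7.02 and Ncl at 23.4 and 4.14 TPM. All 10 genes were at 1 TPM or more in both sperm libraries, beside the leukocyte markers given above and 338 and 2014 TPM of 2 markers of the epididymal epithelium.

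In the tests, the called rises of these genes fell in 3 contrasts: the first cleavage (1-cell to 2-cell), the first 2 cleavages (1-cell to 4-cell) and the whole span (oocyte to blastocyst). Over the first cleavage 4 of the 10 genes rose (Nhp2, Nop2, Bop1 and Gar1) and none fell, where 26.1% of the 10000 genes tested rose and 6.2% fell. Over the first 2 cleavages 7 rose (Npm1, Nop56, Nop58, Nhp2, Gar1, Nop2 and Bop1) and none fell, beside 35.5% and 15.2% of all genes. Over the whole span 4 rose (Fbl, Nhp2, Nop2 and Bop1) and none fell, beside 35.4% and 18.0%. The median change of the 10 genes was 1.02, 2.54 and 1.66 in these contrasts, where that of all genes was 0.72, 0.89 and 0.82. The first of these gaps changed with single libraries. Over the first cleavage the median of the 10 genes was 0.62 against 0.54 for all genes without 1-cell replicate 2, 1.54 against 0.94 without 1-cell replicate 1, 1.14 against 1.12 without 2-cell replicate 1, and 1.14 against 0.30 without 2-cell replicate 2. After quantile normalization, which moved the all-gene medians to -0.12, -0.01 and 0.07, the medians of the 10 genes were 0.53, 1.99 and 1.18, the called genes were 2, 4 and 4, and all genes split into 1591 higher and 1757 lower over the first cleavage (2607 and 620 before) and 2479 and 2553 over the first 2 (3548 and 1520 before). Over the whole span that split was 2659 and 2637 (3543 and 1798 before). With the spread weighted by stage, 1370 of the 10000 genes were called higher and 161 lower over the first cleavage. Of the 10 genes 3 were called there, all higher.

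With an SE of 0.65 to 0.94 for these genes, even changes of several fold could be missed, and a missed threshold does not show equal levels. The fit was run on simulated 1-cell to 2-cell data with 200 changed genes of 10000. There a log2 change of 2 was recovered in 1 of the 200, one of 4 in 127 and one of 8 in 196. In the data 2607 genes were called higher and 620 lower over this step, which makes the adjustment of p less strict. These recovered numbers therefore do not carry over to the data, where Gar1 was called at a log2 change of 2.59. No gene of the group was called in the 4 other steps by limma, where few genes of any kind were. At fertilization (oocyte to 1-cell) 0.330% of all genes rose and 0.05% fell. In the second cleavage (2-cell to 4-cell) 1.58% rose and 1.82% fell, in the step to the 8-cell stage 0.770% and 0.900%, and in that to the blastocyst 1.51% and 1.49%. At an unadjusted p under 0.05 there were 2, 3, 0 and 4 of the 10 genes in these steps. The share of all genes at that unadjusted threshold was not counted, so these counts cannot be set against the percentages above. In the step to the blastocyst all 10 estimates were negative, from -2.62 for Npm1 to -0.16 for Bop1, with a median of -1.15 against -0.14 for all genes. The blastocyst libraries lay below both 8-cell libraries for Ncl, Npm1, Nop58, Dkc1, Nhp2, Gar1 and Nop2, and overlapped with them for Fbl, Nop56 and Bop1. How many of all genes separate in this way was not counted, so this describes the single genes only.

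**Figure D2:**
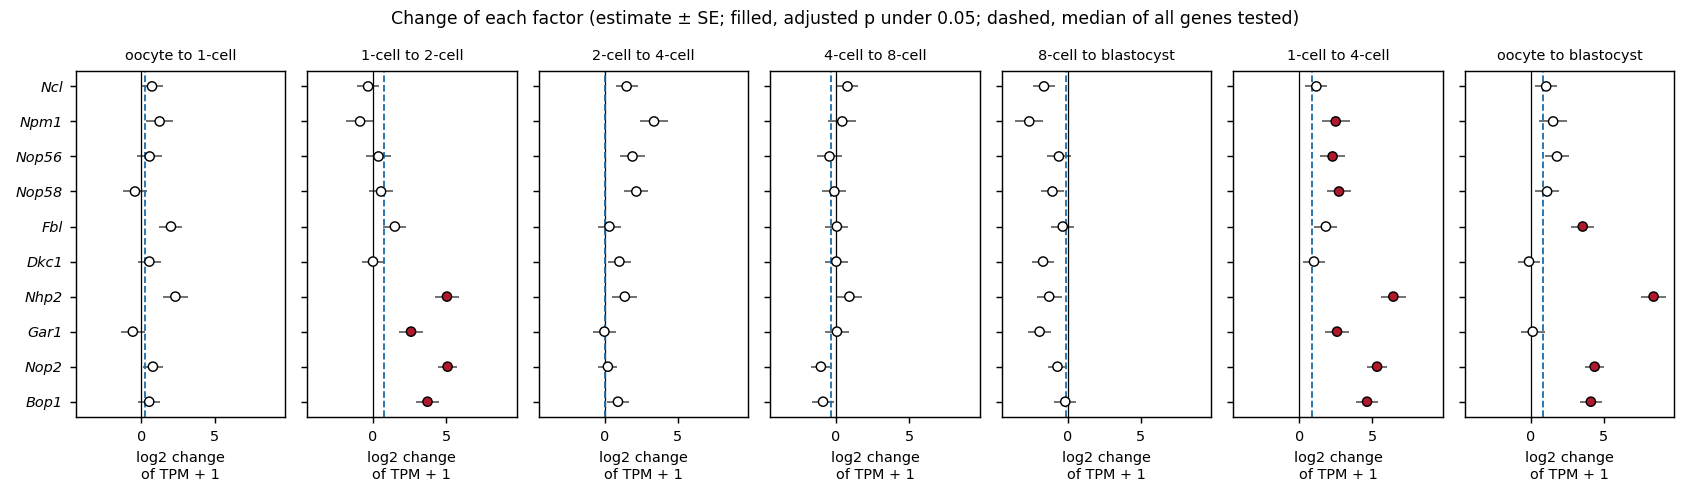
Log2 change of TPM + 1 with its SE for each of the 10 genes (rows) in the 7 contrasts (panels); filled points passed an adjusted p of 0.05 in limma, open points did not, and the dashed line is the median of all 10000 genes tested. Filled points appear only in the first cleavage (4), the first 2 cleavages (7) and the whole span (4), and all of them lie right of 0.

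The calls differed in how firmly they stood. Over 21 alternative settings Nhp2 and Nop2 were called in all 3 of these contrasts, Bop1 over the first 2 cleavages and the whole span, and Fbl over the whole span. Bop1 over the first cleavage was lost only after quantile normalization (adjusted p = 0.0572). Gar1 was lost in 5 of 21 settings over the first cleavage, among them without 2-cell replicate 1 and without 1-cell replicate 1. Over the first 2 cleavages Npm1 was lost in 8 settings, Nop56 in 6, Gar1 in 4 and Nop58 in 3, and 3 genes were called without 4-cell replicate 1, 3 without 4-cell replicate 2 and 4 without 1-cell replicate 2. Without 2-cell replicate 1 the count over the first cleavage was 3, and without 2-cell replicate 2 it was 4.

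Upstream sequence is shown for Nhp2 and Nop2, the genes with the firmest rise at the 2-cell stage, and for Ncl, which had transcripts in the oocyte. RefSeq promoters (GRCm38.p6) were at hand for 7 of the 10 genes, and each was searched on both strands over the 250 bases before its start for the E-box (CACGTG), the CCAAT box, the GC box (GGGCGG), the TATA box (TATAAA) and an ETS site (CCGGAAG). Only the bases before the most upstream long-read start are printed, with matches in capitals.
Nhp2, chr11:51619523-51619710, plus strand: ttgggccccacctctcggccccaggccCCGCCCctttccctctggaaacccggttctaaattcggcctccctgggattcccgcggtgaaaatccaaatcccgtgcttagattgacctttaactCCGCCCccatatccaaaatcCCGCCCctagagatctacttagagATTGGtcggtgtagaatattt
Nop2, chr6:125131633-125131840, plus strand: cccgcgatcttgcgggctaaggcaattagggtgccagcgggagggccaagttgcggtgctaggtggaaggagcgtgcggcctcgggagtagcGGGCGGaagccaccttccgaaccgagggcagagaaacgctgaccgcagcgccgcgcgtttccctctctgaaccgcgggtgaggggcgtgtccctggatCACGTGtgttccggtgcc
Ncl, chr1:86359484-86359705, minus strand: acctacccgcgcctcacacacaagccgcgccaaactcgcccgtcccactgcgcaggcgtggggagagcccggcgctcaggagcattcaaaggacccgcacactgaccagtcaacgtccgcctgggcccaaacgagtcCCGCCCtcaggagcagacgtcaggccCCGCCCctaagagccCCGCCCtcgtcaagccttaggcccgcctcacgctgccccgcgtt
The capitals mark 3 GC boxes and 1 CCAAT match in Nhp2, a GC box and an E-box in Nop2, and 3 GC boxes in Ncl. Of the 7 genes Nop2 alone held an E-box, which 6.02% of all 32851 promoters hold. GC boxes were found in 5 (Nop58, Ncl, Nop56, Nop2 and Nhp2), against 32.7% of all promoters, CCAAT in 2 (Nop56 and Nhp2) against 33.9%, the ETS site in 3 (Gar1, Nop2 and Nhp2) against 6.91%, and the TATA box in 1 (Dkc1) against 12.4%. The ETS matches of Nop2 and Nhp2 lie after the first long-read start and are not printed. None of these letters was shared by all 7 genes, and a match is a description of the sequence alone.

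Of the 5 genes at 39.8 TPM or more in the oocyte, 4 carry snoRNAs in their introns. By the annotation, Nop56 hosts 5 snoRNA genes, Nop58 4, Ncl 3 and Dkc1 1, 13 in all, and the other 6 genes host none. Of all 10917 genes with a merged transcript 215 (1.97%) host a snoRNA. Npm1 is the one of those 5 without a snoRNA. With 10 genes chosen by name this is a description of the group.

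The long-read pools, 1 per stage and thus with no test, showed the same division. By the paper they were made from the same amplified cDNA as the short-read libraries, so they are not independent of these. Structures of 5 genes were found in the oocyte and 1-cell pools (Ncl, Npm1, Nop56, Nop58 and Dkc1), of 9 in each pool from the 2-cell to the 8-cell stage and of 8 in the blastocyst pool. No structure of Fbl, Nhp2, Gar1, Nop2 or Bop1 was listed in the oocyte and 1-cell pools. A missing structure does not show that transcripts were absent. Gar1 also had none in the 2-cell pool, although it was at 155 and 43.4 TPM in the 2-cell short-read libraries. The oocyte pool listed 24 transcripts of the group, but with a whole annotated coding intron chain only 1 of Npm1 and 1 of Nop56, and the 1-cell pool 21, of which 1 of Npm1. For Ncl the longest oocyte structure had 966 bases and the longest 1-cell structure 581, against 2434 at the 2-cell stage. Beside this, the median length of all transcripts in a pool was 826 bases in the oocyte and 724 at the 1-cell stage, and 1108 to 1371 in the other pools, and the part of this in the missing chains was not tested. Bop1 had its only long-read structure in the 2-cell pool, with 2461 bases and the whole coding chain.

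The same libraries had also been quantified over the long-read transcripts of their own stage, a separately normalized table. There the oocyte gave 91.8 and 245 TPM for Ncl and 307 and 138 for Dkc1, and Nhp2 gave 426 and 932 at the 2-cell and 2275 and 2862 at the 8-cell stage. Genes without a structure in a pool have no value in that table.

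Isoforms were then kept apart. Their TPM values are estimates that divide the reads of shared exons among isoforms. Of the 22 merged transcripts, 12 had the introns of an annotated coding transcript and 10 did not match one. Shares of a gene's TPM were tested over the 6 stages, and 9 of the 18 isoforms of the group that could be tested differed, beside 39.2% of the 10413 isoforms tested in all. They belong to Ncl (2), Nop56 (3), Nop58 (2), Npm1 (1) and Dkc1 (1). Shares within a gene depend on each other, and in Ncl and Nop58, with 2 isoforms each, one share is the complement of the other. The called isoforms of a gene are therefore not separate results.

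Nop56 gave the firmest result, since its 3 called isoforms, whose shares depend on each other, passed in all 18 alternatives run on shares. The full-length isoform TCONS_00011383 made up 99.3% and 99.2% of Nop56 in the oocyte, 98.4% and 97.4% at the 1-cell, 77.2% and 32.5% at the 2-cell, 73.5% and 73.0% at the 4-cell, 73.8% and 77.4% at the 8-cell stage and 66.9% and 69.4% in the blastocyst (adjusted p = 0.00397). Every oocyte and 1-cell library was at 97.4% or more and every later library at 77.4% or less. TCONS_00011382 adds an exon of 158 bases (chr2:130278413-130278570) before the last exon, and its share was 0.504% and 0.846% in the oocyte and 9.48% and 9.87% at the 4-cell stage (adjusted p = 0.00972). TCONS_00011384 has an 8th exon of 283 bases in place of 101, and its share was 0.243% and 0% in the oocyte and 13.1% and 13.6% at the 4-cell stage (adjusted p = 0.00645). The intron that enters the added exon, and the one that leaves the lengthened exon, also occur in annotated transcripts, coding ones and ones marked as targets of nonsense-mediated decay. The intron that leaves the added exon is in no annotated transcript. TCONS_00011382 and TCONS_00011384 were each listed in 1 of the 7 long-read pools, that of the 4-cell stage. TCONS_00011385 skips exons 7 and 8 and has a 6th exon of 218 bases in place of 188. Its share was 6.03% and 43.6% in the 2-cell libraries and at most 5.05% in every other oocyte or embryo library (adjusted p = 0.0841).

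Nop58 showed a like division on a smaller scale. TCONS_00000200 carries an extra exon of 117 bases (chr1:59692612-59692728) after the third, and made up 1.35% and 0.440% of Nop58 in the oocyte, 0.727% and 1.62% at the 1-cell, 14.2% and 4.57% at the 2-cell, 16.8% and 15.3% at the 4-cell, 14.1% and 13.5% at the 8-cell stage and 9.14% and 8.05% in the blastocyst (adjusted p = 0.0210). Every oocyte and 1-cell library was below every later one, and the call was lost in 5 of 18 alternatives. The intron before this exon, 222 bases long, holds a snoRNA gene. In Dkc1, TCONS_00022011 has an extra exon of 82 bases after the first, and its share was 8.37% and 10.4% in the oocyte, 23.8% and 20.0% at the 4-cell, 19.9% and 22.4% at the 8-cell stage and 5.38% and 6.83% in the blastocyst (adjusted p = 0.0375, lost in 13 of 18 alternatives).

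**Figure D3:**
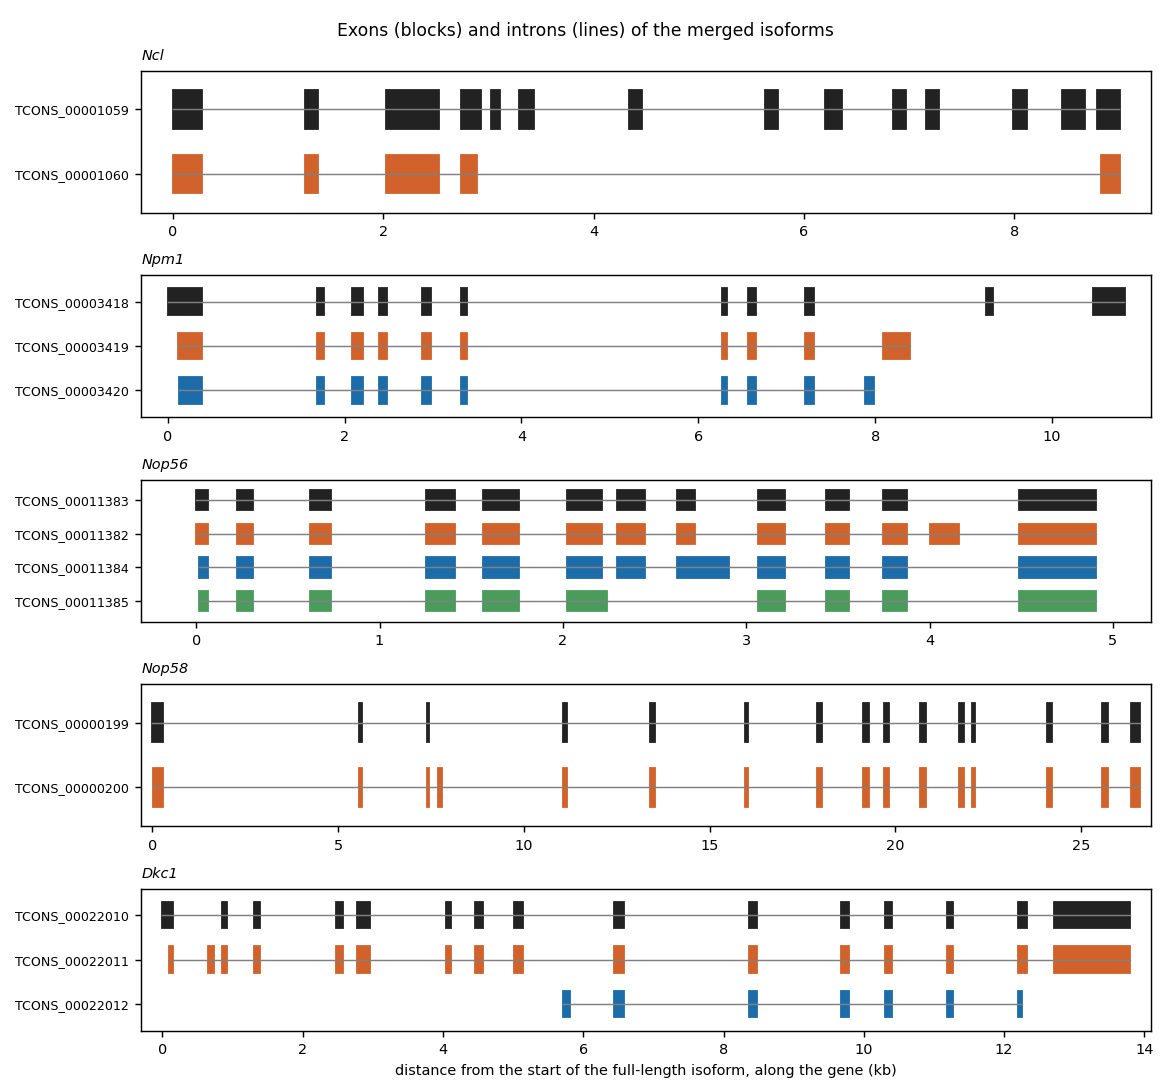
Exons (blocks) and introns (lines) of the merged isoforms of Ncl, Npm1, Nop56, Nop58 and Dkc1, by distance in kb along the gene from the start of the full-length isoform. The short Ncl isoform joins its 4th exon to the last one, the Npm1 isoforms differ in their last exons, and Nop56, Nop58 and Dkc1 have added, lengthened or skipped exons.

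Most of the Ncl signal of the oocyte and zygote was assigned to a short isoform. TCONS_00001060 has 5 exons and 1216 bases, against 14 exons and 2519 bases of the full-length TCONS_00001059, and shares its first 3 exons and both ends. Its share of Ncl was 64.7% and 74.0% in the oocyte, 76.2% and 68.9% at the 1-cell, 27.5% and 0% at the 2-cell, 0.581% and 0% at the 4-cell, 45.2% and 47.2% at the 8-cell stage and 0% and 17.6% in the blastocyst (adjusted p = 0.0152). It was thus high in all 4 oocyte and 1-cell libraries, near 0 at the 4-cell stage, and at 45.2% and 47.2% in the 8-cell libraries. The full-length isoform was at 15.7 and 30.6 TPM in the oocyte, 39.8 and 26.7 at the 1-cell and 261 and 279 at the 4-cell stage. The call was lost with a pseudocount of 0.1 and without 4-cell replicate 2 (2 of 18 alternatives).

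The join of this short isoform is shown because it does not lie at exon ends. It leaves exon 4, 38 bases before that exon ends, and enters the last exon 35 bases after it starts, and no annotated transcript has it. The annotated full-length sequence reads as follows around the 2 ends, with 15 bases on each side and the bases alike at both ends in capitals.
leaving end, chr1:86356579-86356608, minus strand: ggatgatgaggaagaGGAtgacgaagatga
entering end, chr1:86350647-86350676, minus strand: ggcagaggaggagggGGAgacttcaagcca
The 3 bases alike allow 4 placements of the join, of which 0 have GT at the start and AG at the end of the removed stretch, the usual letters of an intron. The join removes 1303 bases of the spliced transcript, which leaves a remainder of 1 when divided by 3, exons 5 to 13 among them, and the removed stretch of the gene spans the 3 snoRNA genes of Ncl. The structure was listed in 1 of the 7 long-read pools, that of the 4-cell stage, where the short-read share was 0.581% and 0%.

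The 3 Npm1 isoforms share their first 9 exons and end in different last exons. TCONS_00003418 holds 876 coding bases by the annotation, TCONS_00003419 771 and TCONS_00003420 855. TCONS_00003420 made up 3.86% and 12.9% of Npm1 in the oocyte, 62.9% and 22.7% at the 1-cell, 0.986% and 3.16% at the 2-cell, 2.25% and 1.73% at the 4-cell, 7.86% and 62.3% at the 8-cell stage and 9.44% and 14.0% in the blastocyst. The 1-cell and 8-cell replicates were far apart, and its call (adjusted p = 0.0498) was lost in 14 of 18 alternatives. The full-length isoform ran from 54.2% and 18.3% at the 8-cell stage to 69.6% and 62.0% in the blastocyst (adjusted p = 0.263).

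The other isoforms showed no called change of share. In Dkc1, TCONS_00022012 begins inside the gene, 748 bases from the nearest annotated start, lacks the first 8 exons and the last, and took 61.0% and 75.8% of Dkc1 at the 1-cell and 33.7% and 29.5% at the 8-cell stage (adjusted p = 0.111). Its exact structure was listed in the oocyte pool alone. In Gar1, TCONS_00013531 lacks the second exon and has another start and end of the first, with its start 197 bases from the nearest annotated one. It took between 31.4% and 81.8% of the gene in oocytes and embryos, with replicates as far apart as stages (adjusted p = 0.674). In Nop2, TCONS_00017083 has another start and end of the first exon and another edge of the second. Both isoforms were at 13.9 TPM or more in every 2-cell and 4-cell library (adjusted p = 0.933 for the share). Nhp2 and Bop1 had 1 merged transcript each, and the second Fbl transcript stayed below 1 TPM and was not tested.

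**Figure D4:**
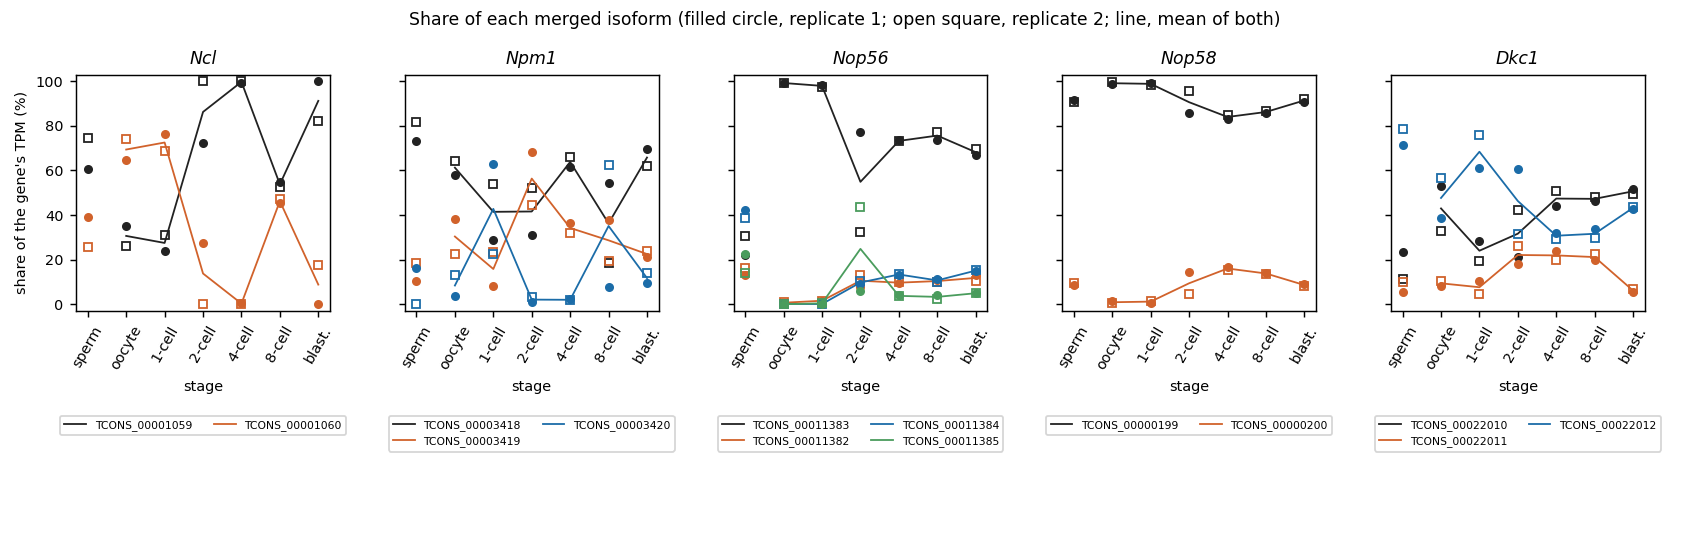
Share of the gene's TPM (%) of each merged isoform of Ncl, Npm1, Nop56, Nop58 and Dkc1 by stage; circles and squares are replicates 1 and 2, lines join the means of both from oocyte to blastocyst, and the full-length isoform is black. The black Nop56 line drops from 97.4% or more in oocyte and 1-cell libraries to 77.4% or less from the 2-cell stage on, and the short Ncl isoform is at 64.7% or more in oocyte and 1-cell libraries.

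Most other ribosome production genes that were called rose as well. Of 142 other ribosome production genes tested, from 6 lists by role, 68 rose and 2 fell over the first cleavage, 107 rose and 1 fell over the first 2 cleavages, and 80 rose and 3 fell over the whole span. Their median changes were 1.97, 3.46 and 2.25, against 0.72, 0.89 and 0.82 for all genes tested. The median of the 10 genes was below that of these 142 in each of these contrasts. Without 1-cell replicate 2 the first cleavage count of risers was 37 in place of 68, and with the spread weighted by stage it was 38. After quantile normalization 49, 91 and 57 rose and 8, 2 and 6 fell. These contrasts share libraries, so their counts are not independent.

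Among the partners of the box C/D particle, 7 of 8 rose from oocyte to blastocyst, where 35.4% of all genes tested rose and 18.0% fell. The same shares stand beside the counts of the other lists below. Several lists are small, and none was tested as a set. Ruvbl2, an ATPase that helps to assemble the particle, was at 1.71 and 3.64 TPM in the oocyte and 388 and 337 in the blastocyst, with a log2 change of 6.68 (SE 0.84, adjusted p = 2.84e-05). Znhit3, a factor of the same assembly path, was at 0.253 and 0.271 TPM in the oocyte, 1629 and 1747 at the 4-cell stage and 206 and 30.1 in the blastocyst, with a log2 change of 5.99 (SE 0.91, adjusted p = 0.000109). Of 4 box H/ACA partners 2 rose. Nop10, the fourth core protein beside Dkc1, Nhp2 and Gar1, was at 12.2 and 1.73 TPM in the oocyte and 599.9 and 494 at the 4-cell stage, with a log2 change of 4.25 (SE 1.03, adjusted p = 0.00319) to the blastocyst. Wrap53, which brings particles to Cajal bodies, was listed at 0 in both oocyte libraries and was at 9.17 and 15.4 TPM at the 2-cell stage, with a log2 change of 2.76 (SE 0.62, adjusted p = 0.00188) to the blastocyst.

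Of 17 genes of RNA polymerase I and its factors 9 rose from oocyte to blastocyst and none fell. Polr1b, its second largest subunit, was at 0.154 and 0.692 TPM in the oocyte and 17.6 and 27.7 at the 2-cell stage, with a log2 change of 4.10 (SE 0.70, adjusted p = 0.000278) to the blastocyst, and Znrd1, a small subunit, was at 0.182 and 0.206 TPM in the oocyte and 37.5 and 43.8 at the 2-cell stage, with a log2 change of 4.36 (SE 0.79, adjusted p = 0.000423). Of 45 small subunit genes 25 rose and 1 fell. Bysl, needed for 40S maturation, went from 0.135 and 0.458 TPM in the oocyte to 39.6 and 113 in the blastocyst, with a log2 change of 5.73 (SE 0.77, adjusted p = 4.13e-05). Fcf1, a processome factor, went from 3.04 and 0.216 to 372 and 32.6 TPM, with a log2 change of 5.66 (SE 1.07, adjusted p = 0.000585). The one that fell was Riok1, a kinase of late 40S maturation, from 157 and 569.7 TPM in the oocyte to 10.8 and 35.2 at the 2-cell stage and 19.8 and 14.5 in the blastocyst, with a log2 change of -4.07 (SE 0.80, adjusted p = 0.000744).

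Of 55 large subunit genes 30 rose and 2 fell. Nop53 was at 0.707 and 0.556 TPM in the oocyte and 91.5 and 405 in the blastocyst, with a log2 change of 6.89 (SE 0.88, adjusted p = 3.03e-05), and Wdr74 at 0.291 and 0.70 TPM in the oocyte and 119.5 and 118 in the blastocyst, with a log2 change of 6.34 (SE 0.74, adjusted p = 1.56e-05). Rsl1d1 fell from 424 and 572 to 147 and 58.9 TPM, with a log2 change of -2.39 (SE 0.76, adjusted p = 0.0154), and Sbds, which acts in the last steps of 60S maturation, from 303 and 517 to 115 and 69.5 TPM, with a log2 change of -2.13 (SE 0.79, adjusted p = 0.0339). Of 13 exosome and exonuclease genes 7 rose, with the largest changes in 2 subunits. Exosc5, of the exosome ring, went from 2.21 and 2.22 TPM in the oocyte to 47.3 and 192 in the blastocyst, with a log2 change of 4.91 (SE 0.92, adjusted p = 0.000555). Dis3, its nuclease, went from 0.568 and 0.234 to 8.13 and 15.7 TPM, with a log2 change of 3.15 (SE 0.91, adjusted p = 0.00952). These lists contain both genes that were near absent from the oocyte and a few that were abundant there, as the 10 genes do. Among the listed genes, Dhx37, Ddx51, Urb2 and Exosc6 had no merged transcript.

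Of the paralogs of Npm1, Npm2 fell from oocyte to blastocyst and Npm3 was not called, and neither was set against Npm1 in a test. Npm2, the histone chaperone of the oocyte, was at 55.9 and 16.6 TPM in the oocyte, 148 and 106 at the 1-cell, 16.5 and 69.7 at the 2-cell, 7.22 and 4.81 at the 8-cell stage and 1.84 and 1.06 in the blastocyst, and fell with a log2 change of -3.71 (SE 0.80, adjusted p = 0.00148). Npm3 was at 134 and 36.5 TPM in the oocyte and 68.2 and 104 in the blastocyst, with a log2 change of 0.26 (SE 0.88, adjusted p = 0.824). Fbll1, the paralog of Fbl, had no merged transcript.

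**Figure D5:**
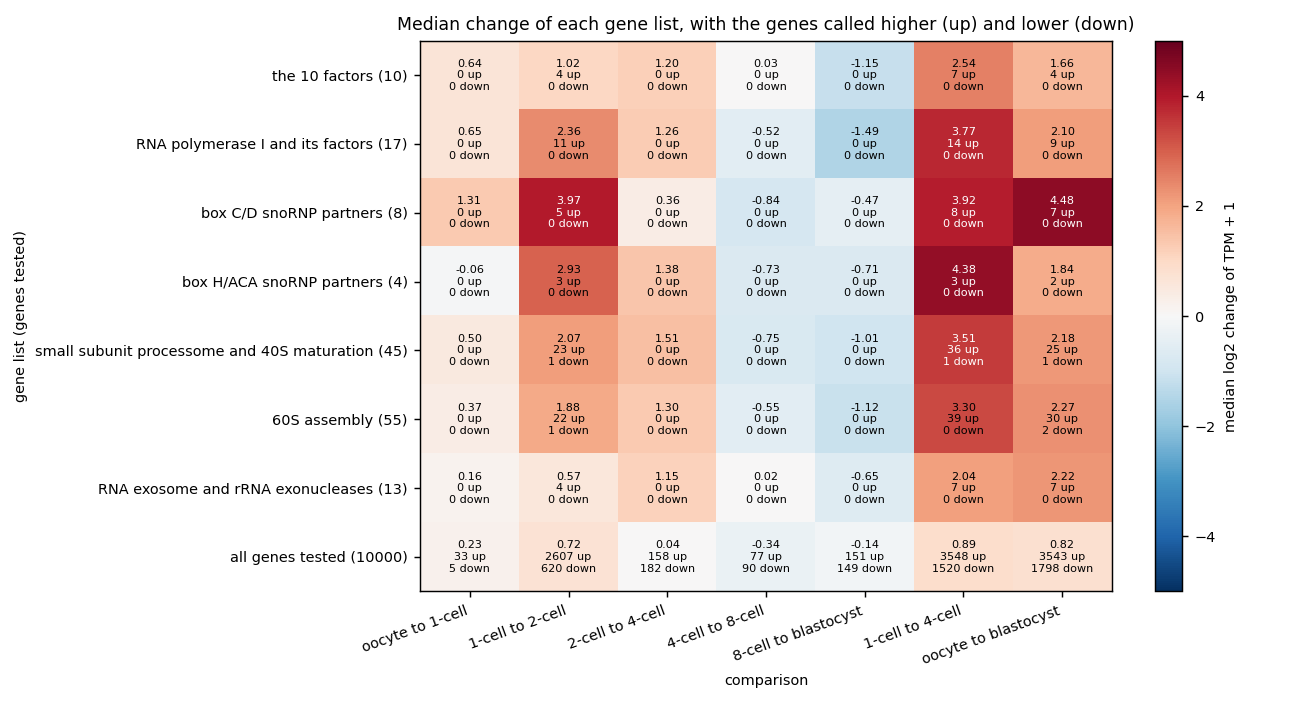
Median log2 change of TPM + 1 (colour and upper number) of the 10 genes, 6 lists of other ribosome production genes and all genes tested (rows, with the number tested) in the 7 contrasts (columns), with the numbers called higher (up) and lower (down). Over the first 2 cleavages the medians of the 7 gene groups lie between 2.04 and 4.38, against 0.89 for all genes, and in the step to the blastocyst all 7 lie below 0 without a called gene.

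The genes whose course over the 12 oocyte and embryo libraries was most like that of the group were Drg2, Nub1, Stip1, Timm8a1 and Surf2, with a mean Pearson r to the 10 genes of 0.822, 0.820, 0.819, 0.819 and 0.817 among 8269 genes ranked. Stip1, a co-chaperone of Hsp70 and Hsp90, was at 9.96 and 28.3 TPM in the oocyte and 1376 and 1214 at the 4-cell stage. Within the group, the closest pair was Nop2 and Bop1 (r = 0.962), followed by Nhp2 with Bop1 (0.929) and with Nop2 (0.928). Next came Fbl with Bop1 (0.918) and Nop56 with Nop58 (0.907). The least alike were Fbl and Dkc1 (0.251). These values describe 12 points in 6 pairs of replicates that share libraries and scaling.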

How the data were processed

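RNA of pooled gametes and embryos was amplified by Smart-seq2, which primes on poly(A) tails, and read as short reads (14 libraries) and PacBio long reads (7 pools). The authors quantified each short-read library as TPM with Salmon over the long-read transcripts merged across stages, and a second time over those of its own stage. The submitters' processing notes also name GSNAP, STAR, Cufflinks and the build mm10. The deposited merged annotation gives exon coordinates. TPM keeps no depth, so the precision of single values is unknown.

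Merged transcripts were assigned to GENCODE vM21 genes by exon overlap on the same strand (most bases, ties to coding genes), and TPM was summed per gene. Genes at 1 TPM or more in at least 2 of the 12 oocyte and embryo libraries were tested on log2(TPM + 1) with limma 3.58.1 in R 4.3.3 (trend on, 6 stages, 7 contrasts, Benjamini-Hochberg adjustment over all genes, threshold 0.05). Isoform shares were tested as log2((isoform TPM + 1)/(TPM of the gene's other isoforms + 1)) with limma's moderated F over the 6 stages. The percentages printed beside these p-values have no pseudocount. For an isoform near or below 1 TPM the tested value thus also depends on the level of its gene. Sperm entered no test. Tables and plots used Python 3.11.15, numpy 2.4.6, pandas 2.3.3 and matplotlib 3.10.9. The fit was tested on simulated data with known changes. No column of another sample was left unused (0).

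The genes, lists and motifs were chosen with earlier results of these data known. The genes named beyond the 10 were, per list, the 2 with the largest called rise and fall from oocyte to blastocyst, and the 5 most alike by mean r among genes of 5 TPM or more on average. Alternatives changed the pseudocount (0.1), filter, normalization, libraries in the fit, weights, replicate block and assignment, and left out each library in turn. Counts of the other ribosome production genes under these settings were chosen after seeing the data. The replicate numbers of the 8-cell libraries follow the titles, which the deposited names reverse.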

Additional observations from a re-analysis of the deposited data

How the results depend on the processing

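None of the called changes of the 10 genes turned its direction in the 21 alternatives, and values that were not called were not followed gene by gene. The median of the 10 genes from the 4-cell to the 8-cell stage, 0.03, turned to -0.02 after quantile normalization, -0.07 without 4-cell replicate 2 and -0.09 without 8-cell replicate 2. After quantile normalization 2 of the 10 genes were called over the first cleavage and 4 over the first 2 cleavages, against 4 and 7. From the 4-cell to the 8-cell stage, where none was called, a fit on the 4 libraries alone called 2 and weighting the spread by stage called 1. Leaving out single libraries gave 3 to 4 over the first cleavage, 0 to 1 from 2-cell to 4-cell (1 without 2-cell replicate 2), 3 to 8 over the first 2 cleavages (3 without 4-cell replicate 1 or without 4-cell replicate 2, 4 without 1-cell replicate 2) and 4 to 5 over the whole span. It gave 3 to 10 isoforms with a called share, with 3 without 4-cell replicate 2, 5 without 4-cell replicate 1 and 10 without 2-cell replicate 1. The other ribosome production genes that rose over the first cleavage were 38 with the spread weighted by stage, and 37 to 71 when single libraries were left out, against 68. The cause of these differences was not tested. Replicate numbers did not pair the libraries, since the correlation of same-numbered deviations ran from -0.547 to 0.479 and exceeded 0.1 in 5 of 15 pairs. With a replicate block the calls were 4, 7 and 4 over the first cleavage, the first 2 cleavages and the whole span, and 7 isoforms. With the 8-cell numbers of the deposited names the block gave 6 over the first 2 cleavages, Npm1 being lost (adjusted p = 0.0501 in limma), and the same counts otherwise. TPM holds no depth, so values near 0 carry no counting interval.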
